A study of Mus musculus with 28 samples.

Results

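Antimycin A blocks mitochondrial complex III, and its effect on the RNA of mouse regulatory T (Treg) cells was read from 3 libraries of cells exposed to 1 µM antimycin A and 3 libraries of untreated cells, 6 of the 28 libraries of the series. All genes with enough counts were examined, which left 11689 of the 43430 genes in the count table. The cells were CD4+ YFP-Foxp3+ CD25+ cells of 3-week-old C57BL/6NJ mice with the genotype RISP WT. RISP is the Rieske iron-sulfur subunit of complex III, so by their label all cells described here, the controls included, had the unaltered gene for it. The same table holds 3 libraries each of cells exposed to 1 µM piericidin, which blocks complex I, and to 500 µM 3-NPA (3-nitropropionic acid), which blocks complex II. These served to ask where antimycin A differs from inhibitors of other complexes. Respiration was not measured in these data. A difference between inhibitors thus cannot be told apart from an unequal degree of block or other effects of each compound. The length of exposure, the vehicle and whether the cells were sorted before or after exposure are not given in the sources used here, and nothing in the labels says whether replicates came from separate mice, so the p-values reflect only how far these libraries lie apart, and part of that distance could be technical.

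Complex III takes electrons from ubiquinol, which complexes I and II and several other dehydrogenases load, and passes them to cytochrome c while it pumps protons. Antimycin A binds the quinone reduction site of its cytochrome b subunit, the 1 subunit of the complex that is encoded in mitochondrial DNA. Treg cells are known to rely on mitochondrial respiration more than other activated T cells. Proliferating cells also need an electron acceptor for aspartate and thereby for nucleotide synthesis, and mitochondrial faults are known to trigger the integrated stress response, in which ATF4 induces genes of amino acid supply.

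The 12 in vitro libraries held 2707199 to 3445930 counts, and the 50 most abundant genes took 10.4 to 12.0% of them. Values are CPM, counts scaled by the TMM library size, so each is a share of the measured RNA, and a fall in the cells' total RNA would not be seen. Because the RNA is from bulk cells, fewer cells of a type and less RNA per cell cannot be told apart. Differences were tested with edgeR's quasi-likelihood F-test in 1 fit of the 12 libraries, errors of log2 fold changes are SE, and a gene is called when its Benjamini-Hochberg adjusted p is below 0.05. General T cell markers summed to 5320 to 5650 CPM in untreated and 5553 to 5870 CPM in antimycin A libraries, and Treg markers to 8133 to 8243 and 7252 to 7962 CPM. Markers of other cell types were read as whole lists, and their part in the results below was not tested. In all 6 libraries, 3 of 14 B cell, 7 of 13 monocyte and macrophage, 2 of 12 dendritic cell, 7 of 10 natural killer cell, 5 of 10 erythroid and platelet and 2 of 12 stromal and epithelial markers had 0 counts, among them Ms4a1 and Pax5 of B cells, Adgre1 of macrophages and Ncr1 of natural killer cells. Others were present: Csf1r, a macrophage receptor, read 14.9 to 15.8 CPM untreated and 8.93 to 19.8 CPM with antimycin A, and Nkg7, a gene of cytotoxic cells, 20.2 to 27.2 and 16.8 to 26 CPM. Dendritic cell markers summed to 96.9 to 105 CPM in untreated and 121 to 136 CPM in antimycin A libraries, B cell markers to 495 to 564 and 358 to 458 CPM, and stromal and epithelial markers to 70.3 to 104 and 100.02 to 119 CPM. Replicate 2 of antimycin A stood apart for the collagens Col3a1 (11.7 CPM) and Col1a2 (16 CPM) and for Jchain of plasma cells (6.99 CPM), which the other 5 libraries had at no more than 0.371, 5.50 and 0.371 CPM. Among B cell markers, Ighm fell (-0.45 ± 0.10, adjusted p = 0.00172) and Igkc, an immunoglobulin light chain, was called higher at a few counts (0, 1.17 and 0 CPM untreated against 4.29, 14 and 3.71 CPM). Igkc was not called without replicate 2 of antimycin A (adjusted p = 0.0984).

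Of the 11689 genes, 1754 were called between antimycin A and untreated cells (15.0%), 760 higher (6.50%) and 994 lower (8.50%). Among them 128 rose and 253 fell by at least 2-fold, and 18 rose and 65 fell by at least 4-fold. The median log2 fold change over all genes tested was 0.02. The largest rises among well-measured genes with names were mt-Rnr1, Psrc1, Nqo1, Dcxr, Gpt2, Tnfsf4, Filip1l, Cdkn1a, Ctsl, Ctse, Sesn2 and Abcb1a. The largest falls were Pbk, mt-Cytb, mt-Nd4, Ube2c, Ccnb1, Nek2, Cenpf, Plk1, Orc1, Mcm10, Cdc6 and Shcbp1. Apart from the mitochondrial transcripts, the falls were genes of DNA replication and mitosis. Direct tests called 86 genes against piericidin (0.736%) and 465 against 3-NPA (3.98%), and 613 of the rises and 730 of the falls were called against neither of these inhibitors. Tnfsf4 was not called without replicate 1 of either group, and Ctsl not without replicate 3 of untreated or replicate 2 of antimycin A.

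**Figure D1:**
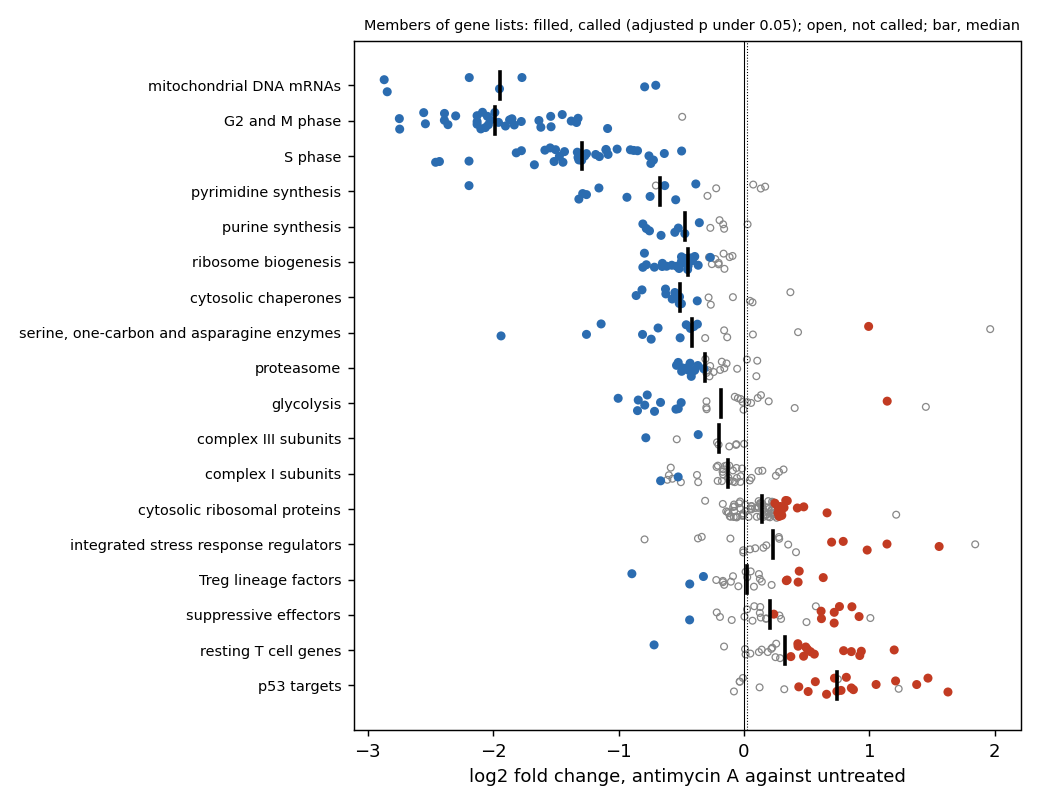
Each point is 1 gene, placed by its log2 fold change between 3 antimycin A and 3 untreated libraries; filled red points were called higher, filled blue points lower, open points were not called, and black bars are list medians. The dotted line marks the median of all genes tested (0.02). S phase and G2 and M phase genes lie on the left, and p53 targets lie mostly on the right with 15 of 23 called higher.

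The promoters of the mitotic genes are shown first, because these genes fell together and share short sequences. RefSeq promoter windows (GRCm38.p6, 250 bases before to 50 after a start) were found for 8705 of the 11689 genes. The cell cycle genes homology region TTTGAA, read on both strands, was present for 23 of 30 G2 and M phase genes with a window (76.7%), against 14.2% of all genes tested with a window. The CCAAT box, on both strands, was present in 76.7% of them against 43.1% of all. S phase genes had TTTGAA in 3 of 27 (11.1%). Many of the 27, such as Mcm3, Mcm5 and Rrm2, had the CCAAT box, beside 43.1% of all genes, and those named lacked TTTGAA. The E2F forms TTTCCCGC and TTTGGCGC were each present in 5 of 27 (18.5%), against 2.64% and 1.18% of all genes. These 4 motifs were chosen after the values were seen, and a match is a description of letters, not of a bound site. Of the 34 called G2 and M phase genes, 6 had both TTTGAA and CCAAT within the 100 bases before the start. The 4 with the smallest p whose start was found in an annotated transcript are printed 5′ to 3′ on the gene's strand, with the 2 motifs (or their reverse complements) in capitals.
Top2a, DNA topoisomerase, chr11:99024190-99024289, minus strand: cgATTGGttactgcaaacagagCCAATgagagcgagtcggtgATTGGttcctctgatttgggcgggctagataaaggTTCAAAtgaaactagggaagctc
Ube2c, a ubiquitin-conjugating enzyme of the anaphase-promoting complex, chr2:164769829-164769928, plus strand: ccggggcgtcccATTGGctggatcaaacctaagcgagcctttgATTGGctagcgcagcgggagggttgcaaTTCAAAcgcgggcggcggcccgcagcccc
Cdk1, the kinase that starts mitosis, chr10:69352913-69353012, minus strand: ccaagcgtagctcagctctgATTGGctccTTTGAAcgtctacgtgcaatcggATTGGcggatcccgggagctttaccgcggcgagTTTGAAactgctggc
Prc1, a microtubule bundler of the dividing cell, chr7:80294376-80294475, plus strand: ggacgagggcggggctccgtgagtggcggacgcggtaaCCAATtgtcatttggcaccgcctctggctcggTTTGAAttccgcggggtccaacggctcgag

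Genes of DNA replication and cell division fell. Of 33 S phase genes tested, 33 fell and 0 rose, with a median log2 fold change of -1.29, beside 8.50% of all genes called lower. Of 35 G2 and M phase genes tested, 34 fell and 0 rose, with a median of -1.99, and Cenpa, the centromeric histone, was the 1 not called (-0.49). The proliferation marker Mki67 read 409, 533 and 403 CPM in untreated cells and 125, 140 and 60.1 CPM with antimycin A. Its groups did not overlap, and the log2 fold change was -2.04 ± 0.16 (adjusted p = 1.41e-12). Ube2c fell from 57.9, 60.0 and 60.9 CPM to 6.07, 15.1 and 4.45 CPM (-2.75 ± 0.32, adjusted p = 2.77e-08). The mitotic kinase Plk1 had a log2 fold change of -2.54 ± 0.32 and cyclin B1, Ccnb1, one of -2.75 ± 0.37. Top2a, whose promoter is printed above, fell from 446 to 496 CPM to 67.5 to 163 CPM (-1.85 ± 0.17).

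Among replication genes, DNA ligase Lig1 read 278, 253 and 258 CPM untreated and 87.9, 95.5 and 78.3 CPM with antimycin A (-1.59 ± 0.12, adjusted p = 8.33e-13). The helicase loader Cdc6 (-2.43 ± 0.25), the origin recognition subunit Orc1 (-2.49 ± 0.34) and the helicase subunit Mcm5 (-1.27 ± 0.11) fell too. Rrm2, the subunit of ribonucleotide reductase made in S phase, fell from 191 to 206 CPM to 20.4 to 58.9 CPM (-2.19 ± 0.19). Replicate 3 was the lowest of the antimycin A libraries in 29 of the 34 called G2 and M phase genes and in 30 of the 33 S phase genes. Without any 1 of the 6 libraries, 33 or 34 G2 and M phase and 31 to 33 S phase genes were called lower.

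Against 3-NPA, 24 of the 33 S phase and 28 of the 35 G2 and M phase genes were lower with antimycin A, beside 2.38% of all genes. Without replicate 3 of antimycin A, these counts were 14 and 19. Against piericidin 0 S phase genes and 1 G2 and M phase gene were called (0.299% of all genes were lower), and the 1 was Mki67 (-0.67 ± 0.16, adjusted p = 0.0272). Mki67 was not called without replicate 3 of antimycin A or replicates 1 or 2 of piericidin. Orc1, which is in neither list, was also lower than with piericidin (-1.50 ± 0.35, adjusted p = 0.0243), a call lost without replicates 2 or 3 of antimycin A or 1 or 2 of piericidin. The medians against the shared untreated cells were -0.95 for S phase and -1.41 for G2 and M phase genes with piericidin and -0.53 and -0.62 with 3-NPA. Dnmt1, the maintenance DNA methyltransferase, and its partner Uhrf1, both genes of replicating cells, fell against untreated cells (-0.96 ± 0.10 and -1.47 ± 0.16). Uhrf1 is 1 of the S phase genes counted above.

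**Figure D2:**
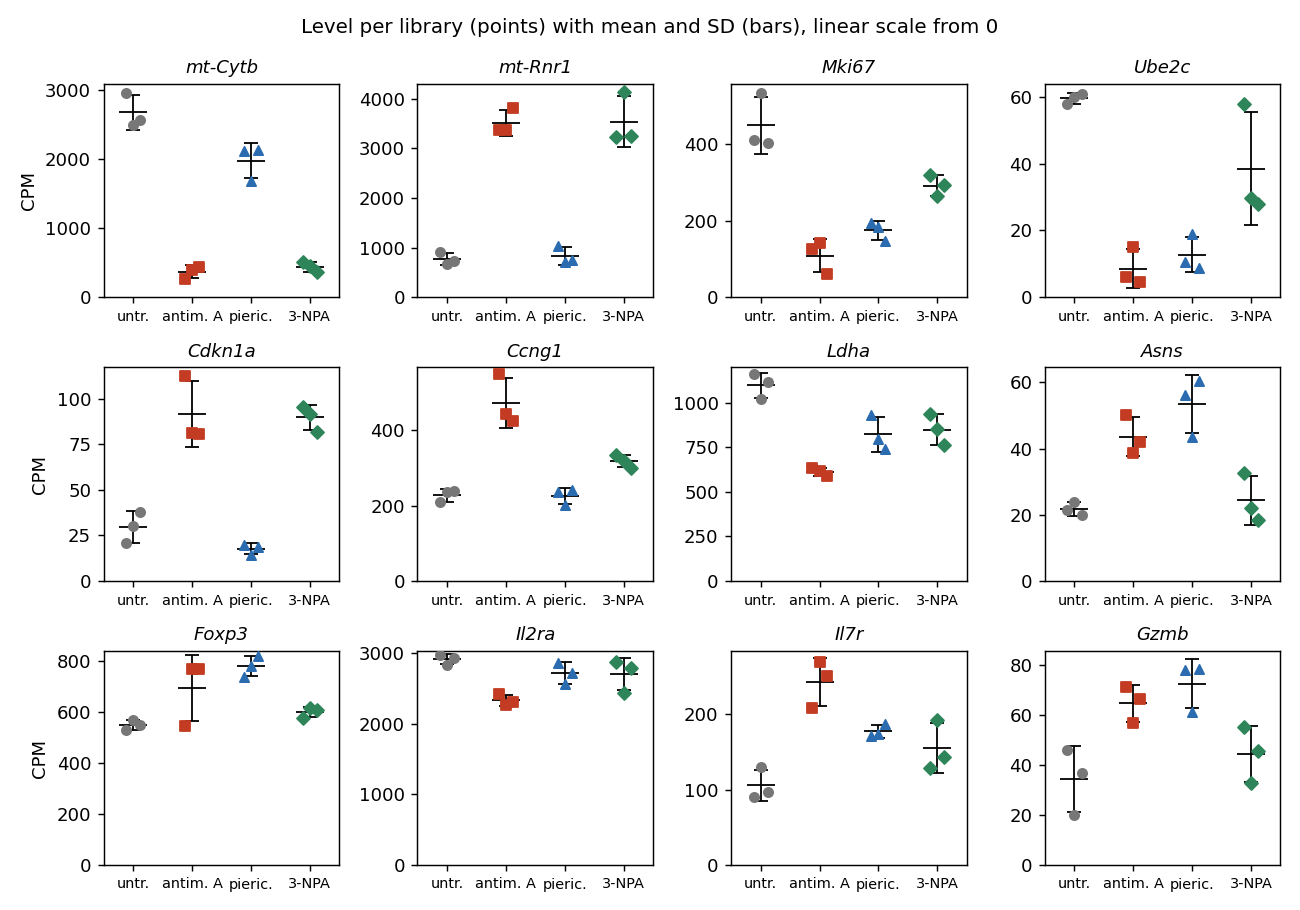
CPM (linear axis from 0) of 12 genes in the 3 libraries of each group, with the mean and SD as black bars. mt-Cytb is low and mt-Rnr1 high with antimycin A and 3-NPA, Ccng1 is highest and Ldha lowest with antimycin A, and 1 antimycin A library has the Foxp3 level of untreated cells.

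Mitochondrial DNA transcripts moved in opposite directions by class. The mitochondrial genome is transcribed into long precursors that are cut into messenger, ribosomal and transfer RNAs, and its messengers encode subunits of complexes I, III and IV and of ATP synthase. All 7 tested messengers fell, and their sum with the untested ones took 1.32 to 1.51% of the counts in untreated and 0.433 to 0.647% in antimycin A libraries. mt-Cytb, the cytochrome b subunit to which antimycin A binds (mitochondrial chromosome, 14145 to 15288, mm10), read 2962, 2500 and 2573 CPM in untreated cells and 260, 397 and 442 CPM with antimycin A. Its log2 fold change was -2.87 ± 0.12 (adjusted p = 3.35e-20). The complex I subunits mt-Nd4 (-2.84 ± 0.16), mt-Nd5 (-2.19 ± 0.11), mt-Nd2 (-1.77 ± 0.12) and mt-Nd1 (-0.70 ± 0.10) fell, and so did mt-Co1 of complex IV (-0.79 ± 0.10). mt-Nd6, the 1 messenger read from the light strand, fell from 540 to 693 CPM to 126 to 200 CPM (-1.95 ± 0.14). Because the strand setting of the counting is not given, reads from the opposite strand cannot be told apart from those of mt-Nd6.

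Both ribosomal RNAs of the mitochondrial ribosome rose. mt-Rnr1, the small subunit RNA, read 902, 666 and 739 CPM untreated and 3366, 3366 and 3818 CPM with antimycin A, and its groups did not overlap (2.19 ± 0.11, adjusted p = 1.89e-18). mt-Rnr2, the large subunit RNA, rose from 1392 to 1774 CPM to 3051 to 3519 CPM (1.01 ± 0.09). The ribosomal RNA genes stand first on the heavy strand transcript. From there the log2 fold changes were 2.19 and 1.01 for these RNAs, -0.70 for mt-Nd1, -1.77 for mt-Nd2 and -0.79 for mt-Co1, and mt-Nd4, mt-Nd5 and mt-Cytb at the far end had -2.84, -2.19 and -2.87. The order is thus not even, since mt-Co1 fell less than mt-Nd2. Per length, mt-Cytb was at 2341 and mt-Nd1 at 2632 RPKM (CPM divided by gene length in kilobases) in untreated cells, and at 320 and 1616 RPKM with antimycin A. The other 6 messengers, which lie between mt-Co1 and mt-Nd4, had 0 or 1 counts in any of the 12 libraries and could not be tested. The libraries were poly(A)-selected, and the part of that selection in the levels of the mitochondrial RNAs was not tested.

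**Figure D3:**
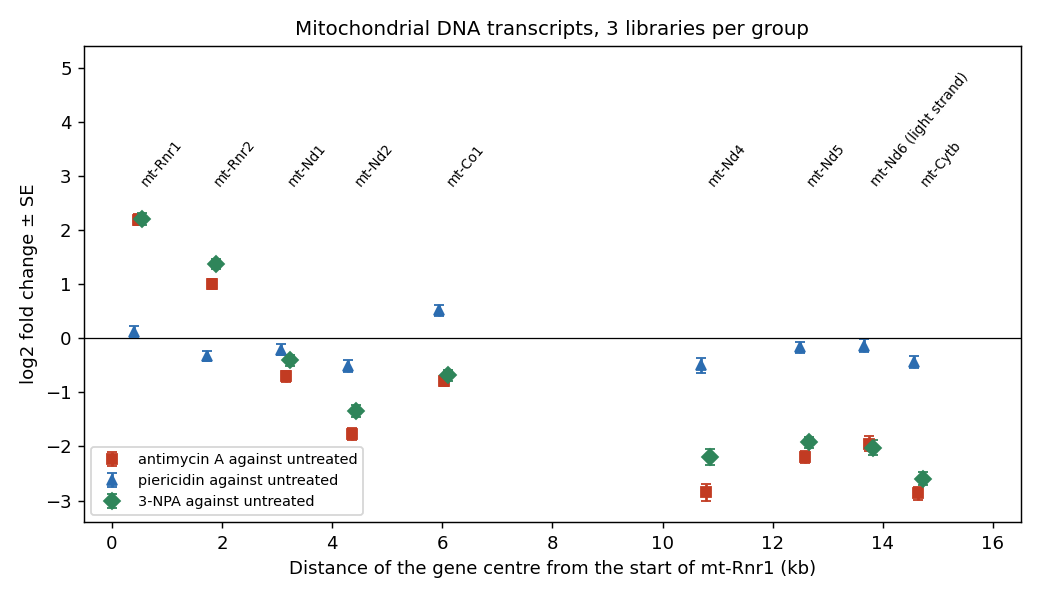
The y axis is the log2 fold change ± SE against the same 3 untreated libraries, and the x axis is the distance of each gene's centre from the start of mt-Rnr1. With antimycin A (squares) values run from 2.19 at mt-Rnr1 to -2.87 at mt-Cytb. Piericidin (triangles) stays between -0.51 and 0.51, and 3-NPA (diamonds) lies near antimycin A.

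Directly against piericidin, all 7 messengers were lower with antimycin A and both ribosomal RNAs higher. mt-Cytb differed by -2.43 ± 0.12 (adjusted p = 7.59e-18) and mt-Rnr1 by 2.08 ± 0.11, while mt-Co1 differed by -1.31 ± 0.10. The call for mt-Nd1 (-0.49 ± 0.10) was lost without replicate 1 of either group. Against 3-NPA, mt-Nd4 (-0.66 ± 0.16, adjusted p = 0.0105), mt-Nd2 (-0.42 ± 0.11, adjusted p = 0.0256) and mt-Rnr2 (-0.36 ± 0.09, adjusted p = 0.0148) were lower with antimycin A. None of these 3 calls held throughout: mt-Nd4 and mt-Nd2 were not called without replicate 1 of antimycin A or replicate 1 of 3-NPA, mt-Nd2 also not without replicate 2 of 3-NPA, and mt-Rnr2 not without replicate 2 of either group. mt-Cytb had -0.27 ± 0.12 (adjusted p = 0.216) and mt-Rnr1 -0.01 ± 0.10 (adjusted p = 0.980) against 3-NPA.

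Nuclear genes of the respiratory chain moved far less. Of 9 complex III subunit genes in the nucleus, 2 fell and 0 rose (median -0.20). Uqcr10 fell from 81.2, 76.4 and 99.0 CPM to 48.2, 45.4 and 55.6 CPM (-0.78 ± 0.17, adjusted p = 0.00123). Cyc1, cytochrome c1, had -0.36 ± 0.12 (adjusted p = 0.0339) and lost its call without replicates 1 or 3 of untreated or 2 or 3 of antimycin A. Uqcrfs1, which encodes RISP, had 51.1, 104 and 64.3 CPM untreated and 61.8, 74.0 and 54.9 CPM with antimycin A. These groups overlap, and the difference was -0.20 ± 0.22 (adjusted p = 0.609), with a positive value of 0.14 without replicate 2 of untreated, which is the highest. The other 6 nuclear subunits lay between -0.54 and 0.00. Over all genes 8.50% were called lower and 6.50% higher. Of 36 complex I subunit genes 2 fell, a share below that of all genes, while 29 lay below 0 (median -0.13). Of 12 genes of complex IV 2 fell and 1 rose (Cox7a2l, 0.66 ± 0.14), and of 14 of ATP synthase 4 fell. Of 75 mitochondrial ribosomal protein genes 9 fell and 0 rose, a share of falls near that of all genes. Their median was -0.25, beside 0.02 over all genes, and 65 of the 75 lay below 0. These counts of falls went down to 0 for complex I without replicate 2 of antimycin A, to 1 for complex IV without replicate 3 of antimycin A and to 3 for the ribosomal proteins without replicate 3 of untreated. The mitochondrial chaperonin Hspd1 fell more (-0.98 ± 0.09), and so did the outer membrane import channel Tomm40 (-0.93 ± 0.15).

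Targets of p53, the transcription factor that answers DNA damage and other stress with cell cycle arrest or death, rose. Of 23 tested (3 more had too few counts), 15 rose and 0 fell, with a median of 0.74, beside 6.50% of all genes called higher. Cdkn1a, the cyclin-dependent kinase inhibitor p21 on chromosome 17, read 20.7, 30.1 and 37.8 CPM untreated and 112, 81.2 and 80.5 CPM with antimycin A. The groups did not overlap, and it rose by 1.63 ± 0.19 (adjusted p = 3.66e-08). Ccng1, cyclin G1, rose from 208, 235 and 239 CPM to 549, 443 and 425 CPM (1.05 ± 0.10, adjusted p = 2.78e-10). Bbc3, which encodes the death-promoting protein PUMA, rose from 17.0 to 19.1 CPM to 44.7 to 60.5 CPM (1.47 ± 0.24). Plk2 (1.38 ± 0.27), Phlda3 (1.21 ± 0.24), Zmat3 (0.72 ± 0.15), Trp53inp1 (0.74 ± 0.09) and Mdm2, the ligase that degrades p53 (0.57 ± 0.12), rose too. Bax, the pore-forming death protein, had 0.44 ± 0.12 and was not called without replicate 2 of untreated or replicate 1 of antimycin A. Without any 1 of the 6 libraries 12 to 14 p53 targets were called higher.

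The p53 targets parted antimycin A from piericidin. Against piericidin 9 of the 23 were higher and 0 lower (0.436% of all genes were higher), and against 3-NPA 2 were higher, Ccng1 and Fas (1.60% of all genes). Cdkn1a read 19.9, 14.5 and 18.9 CPM with piericidin and 95.5, 91.6 and 81.9 CPM with 3-NPA. The difference was 2.36 ± 0.20 against piericidin (adjusted p = 4.94e-11) and 0.03 ± 0.18 against 3-NPA (adjusted p = 0.965). Ccng1 read 237, 202 and 241 CPM with piericidin and 334, 319 and 301 CPM with 3-NPA. It was higher with antimycin A than with either (1.06 ± 0.10, adjusted p = 4.30e-10, and 0.57 ± 0.10, adjusted p = 2.53e-04). Bbc3, Plk2, Phlda3 and Zmat3 were higher than with piericidin by 1.48 ± 0.24, 1.62 ± 0.27, 2.15 ± 0.26 and 0.89 ± 0.15. Fas, a death receptor, was higher than with 3-NPA by 0.67 ± 0.19, a call lost without replicates 1 or 3 of antimycin A or 2 or 3 of 3-NPA. The counts were 7 or 8 against piericidin and 1 or 2 against 3-NPA when 1 library of the compared groups was left out.

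**Figure D4:**
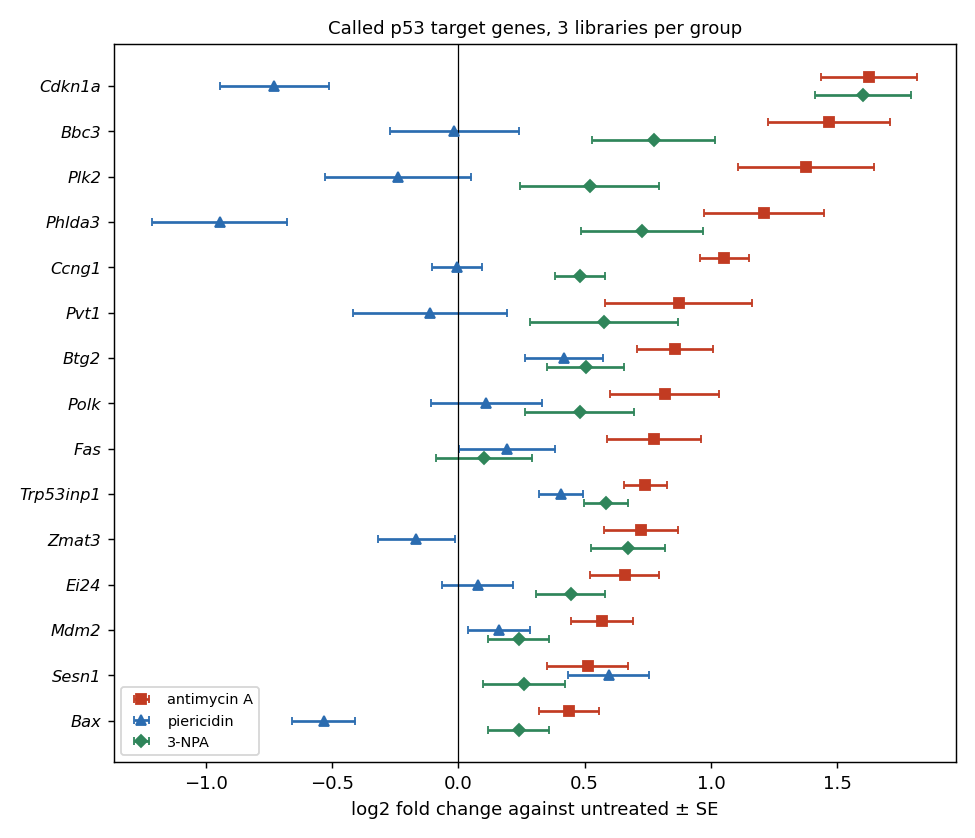
The 15 p53 target genes called with antimycin A are shown by log2 fold change ± SE against the same untreated libraries. All squares (antimycin A) lie right of 0, and with piericidin (triangles) the lowest are Phlda3, Cdkn1a and Bax, with Plk2, Zmat3 and Pvt1 also left of 0 and Bbc3 and Ccng1 at about 0.

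In the BCL2 family of death regulators 5 of 14 tested rose and 0 fell, beside 6.50% of all genes higher and 8.50% lower. Besides Bbc3 and Bax, these were Bcl2l11, encoding the death activator BIM (45.9, 47.4 and 55.4 against 122, 115 and 139 CPM, 1.34 ± 0.15, adjusted p = 1.37e-08), Bcl2a1b, and the survival gene Bcl2 (344, 379 and 345 against 483, 478 and 522 CPM, 0.47 ± 0.08). Bcl2l11 was also higher than with 3-NPA (0.91 ± 0.14). Bcl2a1b has near-identical gene copies, so its counts are uncertain, and it lost its call without replicate 1 of untreated or replicates 2 or 3 of antimycin A.

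Genes of glycolysis, the cytosolic path from glucose to pyruvate and lactate, were called lower more often than higher. Of 26 genes tested 10 fell and 1 rose, with a median of -0.19, beside 8.50% of all genes lower and 6.50% higher. Flux through the path was not measured. Ldha, lactate dehydrogenase, read 1159, 1020 and 1113 CPM in untreated cells and 632, 614 and 589 CPM with antimycin A (-0.84 ± 0.09, adjusted p = 2.35e-09). Gapdh fell from 387 to 427 CPM to 227 to 248 CPM (-0.77 ± 0.09) and Tpi1, triosephosphate isomerase, from 175 to 221 CPM to 95.7 to 129 CPM (-0.85 ± 0.12). Pkm, pyruvate kinase (-0.52 ± 0.08), Pgk1 (-0.67 ± 0.12) and the first enzyme, hexokinase Hk2 (-0.79 ± 0.20), fell. The 1 rise was Eno2, an enolase at low level (3.56, 11.1 and 7.91 against 14.3, 21.0 and 14.8 CPM, 1.14 ± 0.37, adjusted p = 0.0281), whose call was lost without replicates 1 or 3 of untreated or 2 of antimycin A. Many glycolysis genes have processed pseudogenes that could take or give reads.

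Glycolysis genes also separated antimycin A from the other inhibitors. Against piericidin 8 of the 26 were lower and 1 higher, beside 0.299% and 0.436% of all genes, and against 3-NPA 7 were lower and 0 higher, beside 2.38% and 1.60%. Tpi1 differed by -1.10 ± 0.12 against piericidin (adjusted p = 5.45e-08) and by -0.74 ± 0.12 against 3-NPA (adjusted p = 2.19e-04). Gapdh differed by -0.51 ± 0.09 and -0.45 ± 0.09. Ldha differed by -0.43 ± 0.09 and -0.47 ± 0.09, the first not called without replicate 1 of piericidin. Pkm differed by -0.33 ± 0.08 and -0.36 ± 0.08, the first not called without replicates 2 or 3 of antimycin A or 1 of piericidin. Without replicate 1 of piericidin 3 genes were lower against piericidin, and without replicate 3 of antimycin A 4 were lower against 3-NPA.

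**Figure D5:**
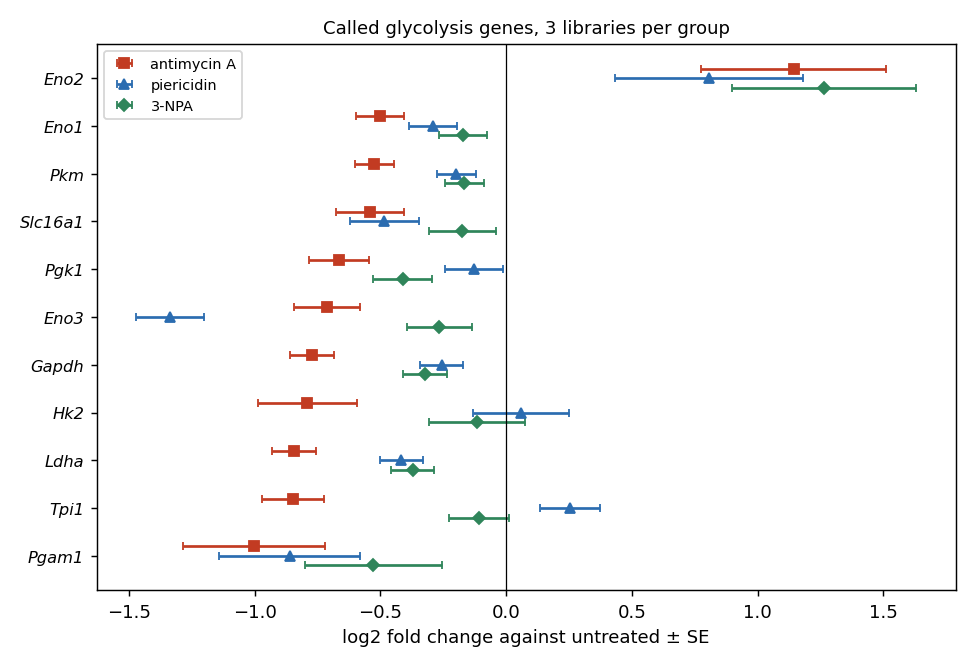
The 11 glycolysis genes called with antimycin A are shown by log2 fold change ± SE against the same untreated libraries. Ldha, Tpi1, Gapdh and Hk2 lie further left with antimycin A (squares) than with piericidin (triangles) or 3-NPA (diamonds), while Eno3 is lowest with piericidin.

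Genes called in the same direction against untreated cells and against both other inhibitors numbered 17, with 6 higher and 11 lower. Higher were Ccng1, Sesn2, Lpin1, Tsc22d3, Trat1 and Arhgap4, and lower were mt-Nd4, mt-Nd2, Orc1, Mki67, Tubb5, Tpi1, Ldha, Gapdh, Hk2, Pkm and Kcnq5. Sesn2, a stress-induced inhibitor of mTORC1, read 16.2, 18.1 and 24.8 CPM untreated and 80.0, 46.0 and 47.8 CPM with antimycin A (1.56 ± 0.26), and Tsc22d3, which encodes the glucocorticoid-induced protein GILZ, rose from 68.4 to 82.5 CPM to 151 to 174 CPM (1.15 ± 0.13). Lpin1, a phosphatidate phosphatase, rose by 1.21 ± 0.19. Tubb5, a beta-tubulin, fell from 1615 to 1755 CPM to 731 to 905 CPM (-1.02 ± 0.08). All 3 calls held without each of the 12 libraries in turn for 3 of the 17, Ccng1, Gapdh and Tpi1.

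The integrated stress response was called in part. Of 20 regulators tested 5 rose and 0 fell (median 0.23), beside 6.50% of all genes higher and 8.50% lower. The 5 were Sesn2, Ddit4, Cebpb, Eif4ebp1 and Trib3. Ddit4, another mTORC1 inhibitor, rose from 118, 89.0 and 108 CPM to 186, 150 and 177 CPM (0.70 ± 0.14, adjusted p = 3.43e-04). Cebpb lost its call without replicate 2 of antimycin A, and Eif4ebp1 and Trib3 lost theirs without several libraries, so 3 to 5 were called, with 3 without replicate 3 of untreated. Of 18 enzymes of serine, one-carbon and asparagine synthesis 11 fell and 1 rose (median -0.41). The rise was Asns, asparagine synthetase, named after its value was seen, at 21.4, 24.0 and 19.9 CPM untreated and 50, 38.7 and 41.9 CPM with antimycin A (0.99 ± 0.22, adjusted p = 0.00112). Asns read 43.5 to 60.4 CPM with piericidin and 18.5 to 32.7 CPM with 3-NPA, and was higher than with 3-NPA (0.84 ± 0.22, adjusted p = 0.0198, not called without replicates 1 or 3 of antimycin A or 2 or 3 of 3-NPA). The core TGATGNAA of the element that C/EBP and ATF factors read was present on either strand in 5 of 18 regulators with a window (27.8%) and in 2.67% of all genes. Of these 5, Trib3 was called and Atf3, Chac1, Herpud1 and Jdp2 were not, and it was also present in 5 of 12 cytosolic tRNA synthetases (41.7%), a list in which most calls were falls. It is shown in capitals for Asns, the called gene of the 18 enzymes that rose.
Asns, 100 bases before the start, chr6:7693210-7693309, minus strand: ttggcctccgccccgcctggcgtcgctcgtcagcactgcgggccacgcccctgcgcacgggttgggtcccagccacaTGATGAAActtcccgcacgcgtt

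The enzymes that fell in the serine and one-carbon group included those that feed nucleotide synthesis. Phgdh, the first enzyme of serine synthesis, fell from 200 to 228 CPM to 111 to 157 CPM (-0.74 ± 0.11), and Shmt1 (-0.81 ± 0.16), Tyms (-1.26 ± 0.20) and Mat2a (-0.46 ± 0.09) fell. Tyms is also 1 of the S phase genes counted above. Beside 8.50% of all genes lower, 10 of 16 pyrimidine synthesis genes fell and 0 rose (median -0.67). The lowest value in this list, -2.19, is that given above for Rrm2. Its falls are thus not all separate from those of S phase genes. Among them were Cad, the enzyme that starts the pathway (-0.54 ± 0.10), and Dut (-1.29 ± 0.13). Of 13 purine synthesis genes 8 fell and 0 rose (median -0.47), with Paics at -0.75 ± 0.11 and Gart at -0.78 ± 0.11. None of the 3 groups held a gene called against piericidin, where only 0.736% of all genes were called. Lower than with 3-NPA were 4, 6 and 2, beside 2.38% of all genes. These went down to 1 and 3 without replicate 3 of antimycin A and to 0 without replicate 1 of 3-NPA.

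Ribosome biogenesis genes fell while the genes of the ribosomal proteins themselves did not, beside 8.50% of all genes called lower and 6.50% higher. Of 32 biogenesis genes 23 fell and 0 rose (median -0.45), with nucleolin, Ncl, at 2511, 2366 and 2422 CPM untreated and 1511, 1376 and 1324 CPM with antimycin A (-0.79 ± 0.08, adjusted p = 1.17e-09). Nop58, a core protein of small nucleolar particles, had -0.78 ± 0.09 and Npm1, nucleophosmin, -0.65 ± 0.08. Without replicate 2 of antimycin A 15 were called. Of 79 cytosolic ribosomal protein genes 15 rose and 0 fell (median 0.14), with Rps27 at 0.66 ± 0.10, but only 4 were called without replicate 2 of untreated, and these genes have many near-identical copies. Of the 13 genes of the Myc network 6 fell and 2 rose. The transcription factor Myc, which drives growth genes, fell from 358, 327 and 371 CPM to 282, 226 and 240 CPM (-0.50 ± 0.10, adjusted p = 3.94e-04), as did spermidine synthase Srm (-1.06 ± 0.13), while the antagonist Mxd4 rose (0.80 ± 0.13).

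Protein folding and turnover genes were lower. Of 17 cytosolic chaperones 11 fell and 0 rose (median -0.51), beside 8.50% of all genes lower and 6.50% higher. Hspa8, the constitutive HSC70, fell from 1626, 1522 and 1577 CPM to 946, 841 and 817 CPM (-0.86 ± 0.08, adjusted p = 2.12e-10), and Hsp90aa1 had -0.81 ± 0.10. Of 27 proteasome genes 12 fell and 0 rose, 7 without replicate 3 of antimycin A. Of 23 endoplasmic reticulum stress genes 9 fell and 0 rose, with Sdf2l1 at -1.02 ± 0.22 and the chaperone Hspa5 at -0.35 ± 0.08. Of 20 cytosolic tRNA synthetases 9 fell and 1 rose. The rise was Sars, seryl-tRNA synthetase (0.32 ± 0.10, adjusted p = 0.0271), and it was not called in any of the 6 fits that left out 1 library of the compared groups, while 6 fell without replicate 3 of untreated.

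Genes that define Treg cells moved in both directions. Of 23 lineage genes 5 rose and 3 fell (median 0.03), beside 6.50% of all genes higher and 8.50% lower, and 2 rose without replicate 3 of antimycin A. Foxp3, the lineage transcription factor by whose reporter the cells were sorted, read 529, 571 and 549 CPM untreated and 544, 771 and 768 CPM with antimycin A. Replicate 1 of antimycin A lay within the untreated range, and the call (0.34 ± 0.09, adjusted p = 0.00931) was lost without replicate 1 of untreated or replicates 2 or 3 of antimycin A (adjusted p = 0.0555 to 0.128). Il2ra, the CD25 chain used in the sort, read 2974, 2828 and 2928 CPM untreated and 2421, 2259 and 2300 CPM with antimycin A (-0.32 ± 0.07, adjusted p = 0.00102). Its groups did not overlap. Gpr83, an orphan receptor of Treg cells, fell from 256 to 289 CPM to 125 to 184 CPM (-0.89 ± 0.13), and Socs2, a target of the IL-2 receptor, fell (-0.43 ± 0.09), while Stat5b, which carries the IL-2 signal, rose from 274 to 330 CPM to 407 to 512 CPM (0.63 ± 0.09).

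Suppressive effector genes were called higher more often than lower. Of 26 tested 8 rose and 1 fell (median 0.21), beside 6.50% of all genes higher and 8.50% lower. The 1 fall was Lgals1, encoding galectin-1 (-0.43 ± 0.12), which was not called without replicates 1 or 2 of antimycin A. Tnfrsf9, the costimulatory receptor 4-1BB, rose from 747, 826 and 887 CPM to 1191, 1462 and 1517 CPM (0.76 ± 0.09, adjusted p = 2.33e-08) and was higher than with 3-NPA (0.52 ± 0.09) but not called against piericidin (-0.27 ± 0.09, adjusted p = 0.163). Pdcd1, the inhibitory receptor PD-1, rose from 104 to 186 CPM to 212 to 330 CPM (0.86 ± 0.16). Gzmb, a cytotoxic protease (0.92 ± 0.21), Tigit, an inhibitory receptor (0.62 ± 0.12), Penk, the enkephalin precursor (0.72 ± 0.14), and Itgb8, an integrin that activates TGF-beta (0.62 ± 0.14), rose. Ctla4, an inhibitory receptor that removes costimulatory ligands, had 848, 892 and 904 CPM untreated and 734, 731 and 889 CPM with antimycin A (-0.17 ± 0.08, adjusted p = 0.163). Il10, a suppressive cytokine, had 31.1, 34.2 and 40.9 CPM and 30.4, 27.4 and 33.8 CPM (-0.22 ± 0.23, adjusted p = 0.605). The groups overlap for Ctla4 and for Il10, and neither was called.

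Genes of resting T cells were called higher more often than lower. Of 26 tested 13 rose and 1 fell (median 0.33), beside 6.50% of all genes higher and 8.50% lower. The 1 fall was Igfbp4 (-0.72 ± 0.20), which was not called without replicates 1 or 3 of untreated or 2 of antimycin A. Il7r, the receptor of the survival cytokine IL-7, read 90.6, 129 and 96.6 CPM untreated and 208, 269 and 251 CPM with antimycin A (1.20 ± 0.13, adjusted p = 1.12e-08), and was higher than with 3-NPA (0.65 ± 0.13). The quiescence factors Klf3 (0.94 ± 0.19) and Btg1 (0.56 ± 0.09) and the membrane protein gene Ms4a4b (0.92 ± 0.10) rose, and S1pr1, the receptor by which T cells leave lymph nodes, had 0.53 ± 0.11. Of 28 T cell receptor signalling genes 8 rose and 0 fell (median 0.15), with the ubiquitin ligase Cblb, which restrains signalling, at 121, 129 and 113 CPM against 198, 201 and 235 CPM (0.81 ± 0.11). Cxcr4, a chemokine receptor, rose from 52.1 to 64.0 CPM to 110 to 151 CPM (1.19 ± 0.15), as did the AP-1 subunit Fosl2 (1.28 ± 0.13).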

How the data were processed

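The authors deposited raw read counts per Ensembl gene, in 1 table for the 12 in vitro libraries. The tools named in the submitters' processing notes are bcl2fastq for base calls, TopHat as aligner, HTSeq as counter and edgeR, the build is mm10, and the strand setting is not given in the sources used here. Per the labels' protocols, libraries were made with the NEBNext kit after poly(A) selection. Symbols matched 42462 of 43430 IDs, and IDs without one held 0.533 to 0.779% of the counts. A further table with 11 per-sample columns that match no label was not used. The fit used R 4.3.3 and edgeR 4.0.16 (filterByExpr by group, TMM, glmQLFTest, prior count 0.125), with a biological coefficient of variation of 14.7% from the common dispersion. DESeq2 1.42.0, other filters and scalings, a replicate block and leaving out each library were tried as alternatives. The script was tested on simulated counts. Lists and genes named were chosen with earlier results of these data known. The naming rule took the subunits of complex III, Foxp3 and Il2ra, Ctla4 and Il10, then the 12 largest rises and 12 largest falls among called genes (mean log2 CPM of at least 3, groups not overlapping, no predicted genes, pseudogenes or variable segments), for each list at most 6 called genes in order of p, and the 5 largest rises and falls among genes also called against both inhibitors. Cenpa, Cdk1, Prc1, Asns, Eno2, Hk2, Fas, Phlda3, Zmat3, Mdm2, mt-Nd1, mt-Rnr2, Arhgap4, Kcnq5, Atf3, Chac1, Herpud1, Igfbp4, Jdp2, Lgals1, Pvt1, Sars, Col3a1 and Jchain were added after their values were seen. Some genes that the rule took are not reported here. Gene positions and length per RPKM are those of the deposited table, and promoter sequences are from RefSeq (GRCm38.p6).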

Additional observations from a re-analysis of the deposited data

How the results depend on the processing

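Against untreated cells, 1754 genes were called, and the count was 2184 with DESeq2 (98.3% of the calls shared), 1746 with RLE factors, 1633 with no filter on low counts, 1620 with a minimum of 1 CPM in 3 libraries and 1793 with only the 2 groups compared. Testing against a 1.5-fold minimum left 204 genes (39 higher, 165 lower). The same minimum left 20 genes against piericidin and 12 against 3-NPA, all 12 of them lower, where DESeq2 called 203 and 788. Leaving out 1 library at a time gave 1261 to 1849 calls against untreated cells, 43 to 96 against piericidin and 188 to 542 against 3-NPA. The lowest counts came without replicate 3 of antimycin A, replicate 1 of piericidin and replicate 1 of 3-NPA. Uqcrfs1 ranged from -0.41 without replicate 1 of untreated to 0.14 without replicate 2 of untreated. Among other genes that were not called, log2 fold changes without 1 library of the compared groups spanned 0 for Col1a2 (-0.63 without replicate 2 of antimycin A, up to 2.09), Csf1r (-0.54 to 0.0667), Nkg7 (-0.19 to 0.0861), Atf3 (-0.24 to 0.39), Herpud1 (-0.16 to 0.0889) and Jdp2 (-0.10 to 0.35). With the replicate number as a block, 1900, 105 and 603 genes were called, and 99.5% of the calls against untreated cells were shared. Deviations from the group means correlated at 0.000225 to 0.111 between same-numbered libraries and at -0.105 to 0.0564 between differently numbered ones. The main fit did not pair the samples by number, so any effect shared by same-numbered libraries stayed in its spread. The depth limits what can be said of genes with few counts, and with 3 libraries a group 1 library decided many of the smaller calls.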

Other observations

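Interferon-stimulated genes had 6 of 30 tested called lower and 0 higher, with a median of 0.08, beside 8.50% of all genes lower and 6.50% higher. Iigp1, a GTPase against intracellular pathogens, read 203, 179 and 129 CPM untreated and 44.3, 93.5 and 78.6 CPM with antimycin A (-1.23 ± 0.23, adjusted p = 1.12e-04 with edgeR), and the transcription factor Irf1 fell (-0.62 ± 0.13). Without replicate 1 of antimycin A 3 were called lower. Beside the 8.50% of all genes called lower, 4 of 29 cholesterol synthesis genes and 4 of 26 fatty acid genes fell. These are small counts that were not tested against that share. The medians were -0.22 and -0.21, and the desaturase Scd2 had -0.63 ± 0.12. The transferrin receptor Tfrc, which brings in iron, fell from 390 to 427 CPM to 230 to 249 CPM (-0.77 ± 0.09), and Cpox of heme synthesis fell from 114 to 134 CPM to 62.3 to 67.9 CPM (-0.90 ± 0.14).

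Among secreted and surface ligands, Lif, a cytokine of the IL-6 family, fell from 55.0 to 66.6 CPM to 22.3 to 26.1 CPM (-1.35 ± 0.20, adjusted p = 4.60e-06) and was lower than with 3-NPA (-1.53 ± 0.20). Tnfsf8, the CD30 ligand, rose from 149 to 210 CPM to 277 to 350 CPM (0.74 ± 0.12) and was higher than with piericidin (0.70 ± 0.12). The histone demethylase genes Kdm7a (0.82 ± 0.13) and Kdm5b (0.79 ± 0.13) rose.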
